A study of Caenorhabditis elegans with 2 samples.

Results

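The cuticle collagen genes of Caenorhabditis elegans were examined for occupancy by NHR-28, a nuclear hormone receptor, in first-stage larvae. Members were the 175 protein-coding genes whose symbol is col followed by a number (156 genes), or is one of the body-shape symbols dpy, rol, sqt, bli or lon of a known cuticle collagen (19 genes). They were 175 of 19985 protein-coding genes of the annotation. Chromatin immunoprecipitation followed by sequencing (ChIP-seq) recovers the DNA bound by a protein. Here it was made on NHR-28 carrying an enhanced green fluorescent protein (eGFP) tag. All animals were of strain OP317, with the labelled genotype unc-119(ed3) III; wgIs317, where wgIs317 is the integrated transgene of the tagged receptor and unc-119 is commonly used as a rescue marker. Whole larvae of both sexes were pooled at the L1 stage, and their age was labelled unknown. The antibody label names nhr-28. The design holds a single group of 2 biological replicates, so no test over samples could be made. Every result is a count, share, rank or signal of these replicates, set beside the same measure over all protein-coding genes, which include the members. Genes share libraries and are not independent replicates.

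The cuticle is the collagen-rich extracellular coat of the worm, made by the hypodermis and other surface epithelia and replaced at each molt. Most of its proteins are small collagens encoded by single genes. They are hydroxylated and assembled into trimers in the secretory pathway, trimmed by proteases and crosslinked outside the cell. Collagen genes are transcribed in waves in each molting cycle, and nuclear receptors such as NHR-23 and NHR-25 are known regulators of molting. Whole larvae average over all cell types, so strong occupancy in few cells and weak occupancy in many cannot be told apart.

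The deposited data held 3 lists of 30000 candidate regions each, which include background, and 1 list of 159 thresholded peaks. The candidate lists came from replicate 1, from replicate 2 and from both replicates together (the pooled list). Each region carried the authors' signal value, a measure of enrichment set relative to a control, which ranks regions within its list with rank 1 for the highest signal. Signals ran from 12.5 to 1362 in the pooled list (median 17.1), from 8.37 to 917.6 in replicate 1 (median 11.3) and from 6.39 to 800.1 in replicate 2 (median 9.01). The thresholded peaks had signals of at least 48.9. None of these values gives a read depth. A gene was counted as having a region when a summit, the position of highest signal in a region, lay within 1 kb of its annotated start. The best region of a gene is the one with the highest signal among these.

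In each of the 3 lists, a smaller share of cuticle collagen genes than of protein-coding genes as a whole had a region near the start. In the pooled list, 50 of 175 cuticle collagen genes had one (28.6%, exact 95% interval 22 to 35.9%), against 46.2% of all protein-coding genes. In replicate 1 it was 63 members (36%, 28.9 to 43.6%), against 48.6% of all genes. Replicate 2 gave 57 members (32.6%, 25.7 to 40.1%), against 48.3% of all genes. The members' share minus that of all genes was -17.6, -12.6 and -15.7 percentage points in the pooled list, replicate 1 and replicate 2. All 3 intervals lay below the share of all genes, and they cover counting error over genes only, in genes that are not independent. Only 1 member, col-63, lay within 1 kb of a thresholded peak (0.571% of members), against 0.56% of all genes, and a single gene carries the first of these shares.

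The regions that did lie near members were also of lower rank. In the pooled list the median best rank was 17124 over the 50 members with a region (range 111 to 29268), against 11404.5 over all genes with a region. In replicate 1 the median was 16839 for members and 11905.5 for all genes, and in replicate 2 it was 16569 and 12267.5. The median signal of the best region was 16.3 for members and 18.7 for all genes in the pooled list. It was 10.9 and 12.3 in replicate 1, and 8.65 and 9.70 in replicate 2. A best pooled rank within the highest 1000 was held by 2 members (1.14%), against 3.15% of all genes, and within the highest 3000 by 5 members (2.86%), against 7.57%. Most regions counted at members therefore came from the lower part of lists that include background.

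**Figure D1:**
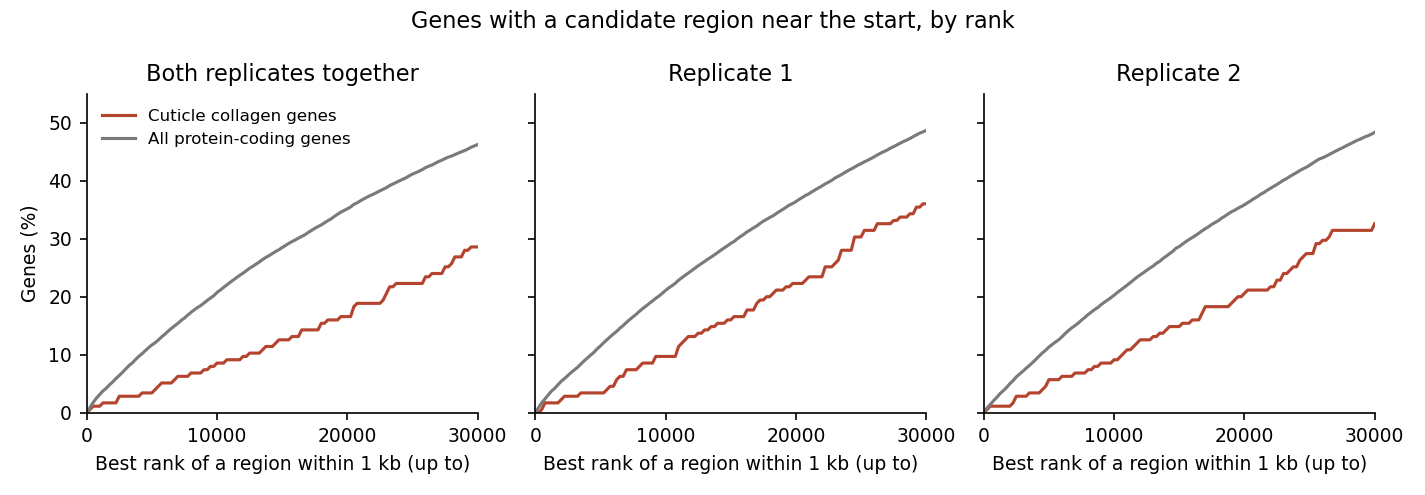
Share of genes (percent, vertical axis) whose best region within 1 kb has a rank up to the one on the horizontal axis (linear scale), for cuticle collagen genes (red) and all protein-coding genes (grey) in each list. At the end of the pooled list the members reach 28.6% and all genes 46.2%.

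The member with the strongest region was col-63 (WBGene00000639), on the minus strand of chromosome I. Its pooled region at chrI:8245594-8245923 (ce11) had rank 111 and a signal of 54.7. The summit lay 796 bp upstream of the start, inside the 3′ UTR of ceh-8, a homeobox gene. In the replicates the best region of col-63 had rank 333 with a signal of 26.0 in replicate 1, and rank 148 with a signal of 25.6 in replicate 2. The summits lay 804 and 765 bp upstream. It was the only member within the highest 1000 regions of both replicates. It was also the only one within the highest 3000 of both (0.571% of members), against 1.86% of all genes. The other leading member on this chromosome, col-64, had pooled rank 2500 and a signal of 27.1, with the summit 892 bp upstream in a coding exon of mom-4, a kinase gene whose span holds the start of col-64. In replicate 2 its rank was 9957, and replicate 1 had no region there.

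Beyond col-63, no member lay at a thresholded peak, and the leading members ranked far higher in 1 replicate than in the other, or were missing there. For col-179, the pooled region at chrX:11200812-11201141 had rank 431 and a signal of 38, with an intergenic summit 488 bp upstream. The signal was 22.7 at rank 251 in replicate 2, and 11.7 at rank 13761 in replicate 1. Of the 30-base words within 1 kb of its start, 78.5% occurred once in the genome. The part of repeated sequence in these ranks was not tested. For col-156, the pooled region at chrV:11451020-11451349 had rank 1141 and a signal of 31.3, with an intergenic summit 828 bp upstream. In replicate 1 it had rank 535 and a signal of 23.7, and replicate 2 had no region within 1 kb. For col-88, the region at chrIII:39907-40236 had pooled rank 2264 and a signal of 27.6, 991 bp upstream and so close to the 1 kb limit. The ranks of its best regions were 5365 in replicate 1 and 26579 in replicate 2, where the summit was another one, 188 bp from the start. For col-101, the region at chrIV:327309-327638 had pooled rank 4147 and a signal of 24.3. Its summit lay 454 bp upstream in an intron of drl-1, a kinase gene that spans the start of col-101. It had rank 696 in replicate 1 and no region in replicate 2.

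The 101 bases around the pooled summits of these 4 members are shown because, with those of col-63 and col-64, they hold the 6 highest ranked best regions of cuticle collagen genes in the pooled list. All are read on the plus strand of ce11, 5′ to 3′. Capitals would mark a hit of the motif TATAAA or of GATAAG or of AGGTCA or of GAGAGA on either strand, and none of these 4 windows holds any. The windows are chrX:11200927-11201027 for col-179, chrV:11451135-11451235 for col-156, chrIII:40022-40122 for col-88 and chrIV:327424-327524 for col-101. They are rich in A and T, with a GC content of 19.8%, 29.7%, 20.8% and 24.8% in that order.
col-179: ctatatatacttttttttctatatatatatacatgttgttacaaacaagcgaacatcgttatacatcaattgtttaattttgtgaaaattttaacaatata
col-156: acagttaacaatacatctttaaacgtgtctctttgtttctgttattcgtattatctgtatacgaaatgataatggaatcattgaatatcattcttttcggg
col-88: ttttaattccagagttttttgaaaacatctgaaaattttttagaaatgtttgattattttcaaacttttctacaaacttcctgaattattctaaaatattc
col-101: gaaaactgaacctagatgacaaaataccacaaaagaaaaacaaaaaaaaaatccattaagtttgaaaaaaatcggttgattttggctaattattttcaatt

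Of the next 9 members by pooled rank, col-118 and col-89 ranked within the highest 10000 in all 3 lists. For col-118 the ranks were 5387 in the pooled list, 2022 in replicate 1 (signal 18.6) and 4620 in replicate 2 (signal 12.9). For col-89 they were 6879, 5541 (signal 15.1) and 4471 (signal 13), with pooled summit 717 bp upstream. For col-107 the pooled rank was 5138 (signal 23.2, 365 bp upstream in an intron of C34H4.5), and the replicate ranks were 17044 in replicate 1 and 13875 in replicate 2. For col-42 the pooled rank was 6719, while replicate 1 placed its best region at 22201 and replicate 2 at 2378. The other members of these 9 had a region in only 1 replicate. They were col-185 (pooled rank 5548, rank 1856 in replicate 1), col-102 (7880, 6783 in replicate 2), col-163 (8930, 9180 in replicate 1), col-172 (9415, 3425 in replicate 2) and col-97 (9990, 23293 in replicate 1). These genes encode collagens for which the annotation used here gives only the numbered symbol.

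**Figure D2:**
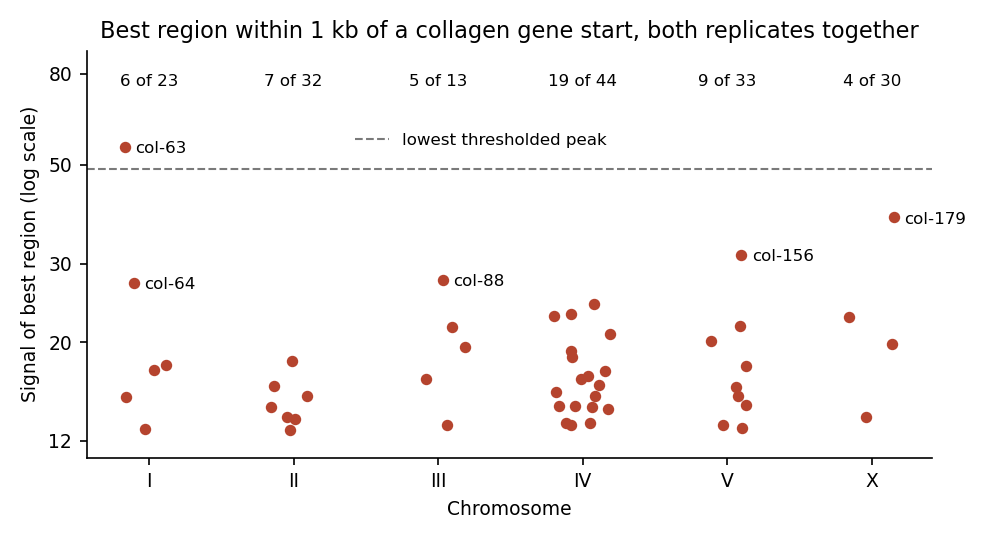
Signal of the best pooled region within 1 kb (log scale, vertical axis) of each cuticle collagen gene with one, by chromosome (horizontal axis), with the number of members that have one above each chromosome and a dashed line at the lowest thresholded signal (48.9). The signal of col-63 (54.7) is the highest and that of col-179 (38) the next.

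Where regions lay near members, they lay mostly upstream. The best pooled region was upstream for 41 of 50 members (82.0%), against 63.1% of all genes with a region. It was upstream for 55 members in replicate 1 (87.3%), against 62.2%, and for 46 in replicate 2 (80.7%), against 61.0%. The median distance of the best summit from the start was 488.5 bp for members and 432 bp for all genes in the pooled list, 433 and 441 bp in replicate 1, and 472 and 432.5 bp in replicate 2. Of the 50 pooled summits, 32 were intergenic, 10 lay in an intron, 5 in a coding exon, 2 in a 5′ UTR and 1 in a 3′ UTR. The nearest protein-coding start was the member's own for 41 of the 50, that of another member for 1 and that of a gene outside the family for 8. Over all genes it was the gene's own in 86.4%.

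The members' share lay further below that of all genes on the downstream side. A pooled region up to 1 kb upstream was found at 24.0% of members, against 33.1% of all genes, and one up to 1 kb downstream at 6.29% (11 members), against 22.2%. In replicate 1 the upstream share was 32% of members against 34.2% of all genes, and the downstream share 4.57% against 23.3%. In replicate 2 it was 26.3% of members against 33.2% upstream, and 8.0% against 23.8% downstream. Members are short genes, with a median length of 1221 bp against 2026 bp. The median coding share of the kilobase downstream of the start was 84.9% for members and 45.6% for all genes. Among genes whose coding share lay between 62.4 and 89.7%, the range of the middle 50% of members, pooled downstream regions occurred at 4.44% of 90 members and at 11.5% of 5135 genes. Within this range the median coding share was still 84.9% for members and 73.5% for all genes, so the genes were matched only in part. Pooled upstream regions occurred at 21.1% of those members and at 30.6% of those genes. In the same genes replicate 1 had upstream regions at 34.4% of members and 33.3% of all genes, and replicate 2 at 26.7% and 32.4%. Downstream, replicate 1 had regions at 2.22% of these members and 14.4% of these genes, and replicate 2 at 5.56% and 15%. The members' downstream share was thus the lower in all 3 lists, and their upstream share in 2.

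**Figure D3:**
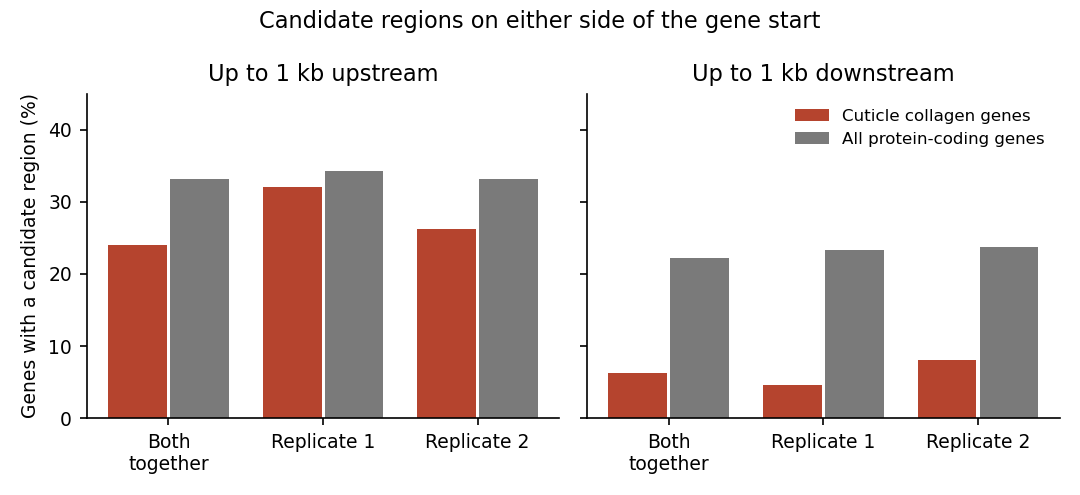
Share of genes (percent, vertical axis) with a region up to 1 kb upstream or downstream of the start, for cuticle collagen genes and for all protein-coding genes in each list. Downstream shares of members are 6.29, 4.57 and 8.0% in the pooled list, replicate 1 and replicate 2, against 22.2, 23.3 and 23.8% of all genes.

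A smaller share of members than of all genes had a region in more than 1 list at once. A region in all 3 lists was found at 14 members (8.0%), against 26.2% of all genes, and in none at 75 members (42.9%), against 30.8%. Both replicate lists had a region at 24 members (13.7%), against 29.7%. At 8 members the best summits of both replicates lay within 200 bp of each other (4.57%), against 12.2% of all genes. Among genes with a region in both replicates, that is 8 of 24 members and 2439 of 5935 genes. These 8 were col-63, col-179, col-107, col-89, dpy-5, col-40, col-130 and col-177. Of the 50 members with a pooled region, 28% had one in both replicates, 64.0% in 1 and 8.0% in neither. Over the 9236 genes with a pooled region these shares were 56.8%, 39.0% and 4.27%. Of the 24 members with a region in both replicates, 10 had none in the pooled list, among them dpy-5 and sqt-3. Over all genes this held for 692 of 5935, a smaller part.

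Ranks in replicate 1 and replicate 2 had a Spearman's rho of 0.0496 over the 24 members with a region in both, against 0.178 over 5935 genes. These are descriptions over genes that share both libraries, and 24 members are few. The widest gaps among members within the highest 3000 of either replicate belonged to col-179, where replicate 2 was the stronger, and to col-42, also stronger in replicate 2. For col-179 the summits lay close together, 479 and 472 bp upstream in replicate 1 and replicate 2. For col-42 they lay 224 and 949 bp upstream, so its 2 ranks belong to different regions. Smaller gaps were seen for col-118, with summits 601 and 865 bp upstream, and for col-63. No other member qualified, since each of the rest lacked a region in 1 replicate or ranked below 3000 in both.

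**Figure D4:**
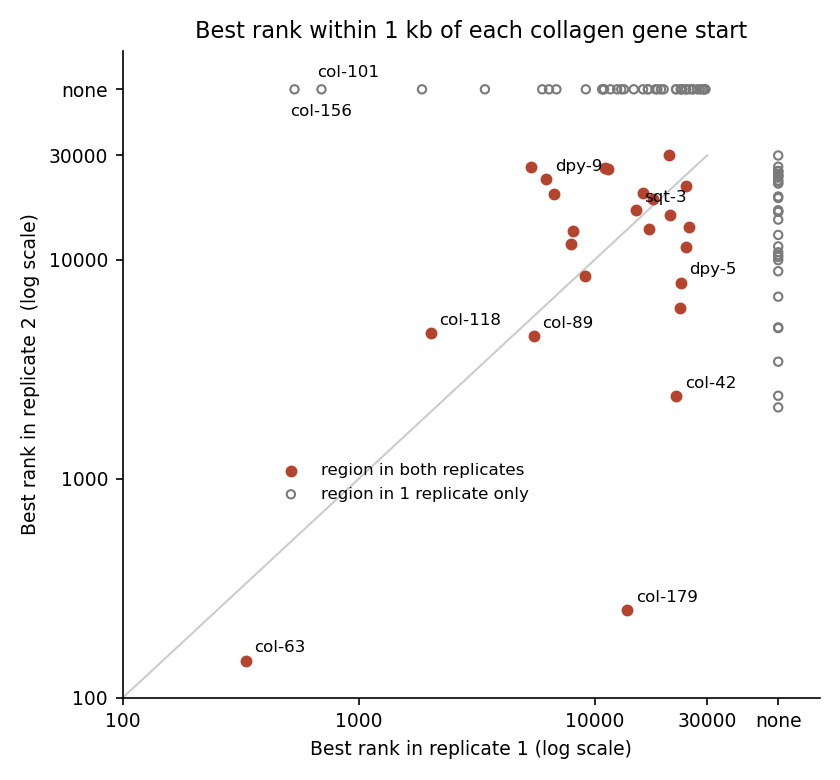
Rank of the best region within 1 kb in replicate 1 (horizontal axis) and replicate 2 (vertical axis), both on log scales, for the 24 cuticle collagen genes with a region in both (filled) and those with one in a single replicate (open, placed at none on the other axis). Only col-63 (ranks 333 and 148) lies within the highest 1000 of both.

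None of the 19 genes known from mutants of body shape had a region within the highest 3000 of the pooled list. At that limit 2.86% of members and 7.57% of all genes had one, so few or none would be counted among 19 genes. At any rank, 2 of the 19 had a region in the pooled list (10.5%), against 46.2% of all genes. It was 8 in replicate 1 (42.1%), against 48.6%, and 7 in replicate 2 (36.8%), against 48.3%. The other 156 members had 48 (30.8%), 55 (35.3%) and 50 (32.1%). The replicate shares of the 2 groups were thus close, and the pooled share of body-shape genes rests on 2 genes. Members of the 6-gene furrow set encode collagens of the annular furrows, the grooves that circle the body, and their mutants are short and fat (Dumpy). Of these, dpy-9 was the only body-shape gene with a region in all 3 lists. Its pooled rank was 14615 with a signal of 17.2, 343 bp upstream of the start. Its rank was 6244 in replicate 1 (signal 14.7, 411 bp) and 23370 in replicate 2 (signal 7.38, 924 bp), so the summits differed. The genes dpy-3 (rank 25223) and dpy-8 (19618, 63 bp upstream) had a region in replicate 1 only. The genes dpy-2 (19135, 74 bp upstream) and dpy-7 (24701, 258 bp downstream) had one in replicate 2 only, and dpy-10 had none in any list.

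The strut collagens BLI-1 and BLI-2 form the columns that join the layers of the adult cuticle, and their mutants blister. In replicate 1, bli-2 had a region of rank 18468, 980 bp downstream, and bli-1 had none in any list. Among genes named for rolling or squat mutants, sqt-2 had pooled rank 12475 (signal 18.2, 586 bp upstream) and rank 14657 in replicate 1, with no region in replicate 2. For sqt-3, whose collagen is needed in embryos and young larvae, the ranks were 15011 in replicate 1, 402 bp upstream, and 16807 in replicate 2, 388 bp downstream. The gene rol-8 had rank 10282 in replicate 2 only. No list held a region for rol-6, whose dominant alleles are used as injection markers, or for sqt-1. Of the other Dumpy genes, dpy-5 had ranks 23281 and 7870 in replicate 1 and replicate 2, with summits 303 and 306 bp upstream. In replicate 1 dpy-4 had rank 10764, and in replicate 2 dpy-14 had rank 25417. There was no region for dpy-13, for dpy-17, whose collagen is processed with SQT-3, or for lon-3, whose loss makes animals long. In all, 7 of the 19 had no region in any list, where 42.9% of all members and 30.8% of all genes had none.

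The 101 bases at the pooled summits of both body-shape genes with a pooled region are shown beside the summit shared by col-3 and col-117, the only pair of members with the same best pooled region. The windows are chrIV:259497-259597 for dpy-9, chrII:22689-22789 for sqt-2 and chrIV:8824418-8824518 for the pair, on the plus strand of ce11. Capitals mark TATAAA, found only in the dpy-9 window, and none of the 3 windows holds GATAAG or AGGTCA or GAGAGA. The GC content was 33.7%, 24.8% and 40.6% in that order.
dpy-9: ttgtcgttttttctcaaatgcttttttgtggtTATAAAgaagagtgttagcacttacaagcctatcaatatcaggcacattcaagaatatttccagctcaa
sqt-2: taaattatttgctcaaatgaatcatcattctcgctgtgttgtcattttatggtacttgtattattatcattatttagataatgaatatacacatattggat
col-3 and col-117: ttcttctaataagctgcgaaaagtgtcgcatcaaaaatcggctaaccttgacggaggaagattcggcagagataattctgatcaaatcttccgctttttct

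The col-3 and col-117 genes are transcribed away from each other, with 587 bp between their starts. The shared pooled region had rank 27490 and a signal of 13.2, with its summit 315 bp upstream of col-3 and 273 bp upstream of col-117. Replicate 2 had rank 16569 for both, and replicate 1 had no region. Only 29.1% of the 30-base words within 1 kb of either start occurred once in the genome, and the part of repeated sequence in these ranks was not tested.

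Members that lie close together had smaller shares than isolated ones. Of 57 members with another member within 10 kb, 19.3% had a pooled region, with 21.1% in replicate 1 and 17.5% in replicate 2. Of 118 members with none so near, the shares were 33.1%, 43.2% and 39.8%. No matching split over all genes is given, so whether this difference is particular to cuticle collagen genes was not tested. The part of repeated sequence in it was not tested either. Both arrays given here were picked after their values were seen. The 5 genes col-167, col-168, col-169, col-170 and col-171 on X had no region in any list, with 55.9 to 98.8% unique 30-base words around their starts. The genes col-79, col-39, col-80 and bli-1 on II all start inside dph-2. Of these, col-80 had rank 6410 in replicate 1 and the rest had no region.

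Repeated sequence surrounded a larger share of members, with less than 90% unique 30-base words at 42 of them (24.0%), against 16.2% of all genes. The median was 98.8% unique for members and 99.9% for all genes. At 90% or more, pooled regions lay at 30.1% of 133 members and 49.2% of genes, with 38.3% against 52.0% in replicate 1 and 36.1% against 51.7% in replicate 2. Under 90%, the shares were 23.8% against 30.9%, 28.6% against 31.6%, and 21.4% against 30.9% in the pooled list, replicate 1 and replicate 2. The members' shares were thus lower in both classes. Promoter GC content was also higher for members, with a median of 38% against 34.3%. The range from 28.8 to 47.1% GC leaves out the lower and upper 5% of members. Within it the shares were 27.4% against 45% in the pooled list, 35.7% against 47.8% in replicate 1 and 30.6% against 47.1% in replicate 2.

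Members had less space upstream before the next gene, with a median of 817 bp against 936 bp. Members with a pooled region had a median of 1134.5 bp and those without one 685 bp, while over all genes these were 990 and 879 bp. Among members with less than 500 bp of space, 19.7% of 66 had a pooled region, against 43.3% of all such genes. From 500 to 1000 bp it was 28.1% of 32 members, against 47.4%, and from 1000 to 2000 bp 30% of 40, against 46.6%. Among members with at least 2000 bp, 43.2% of 37 had one, against 48.4%. With less than 500 bp, replicate 1 had regions at 27.3% of members and 46.8% of such genes, and replicate 2 at 30.3% and 46.3%. From 500 to 1000 bp, replicate 1 had them at 43.75% and 51.0%, and replicate 2 at 37.5% and 49.1%. From 1000 to 2000 bp, replicate 1 had them at 27.5% and 48.7%, and replicate 2 at 25% and 47.8%. With at least 2000 bp, replicate 1 had them at 54.1% of members and 49.2% of such genes, and replicate 2 at 40.5% and 50.2%. In neither replicate did the gap narrow step by step with more space. The members' share was thus the higher in replicate 1 where most upstream space was free, and the lower there in the pooled list and in replicate 2. The starts of 35 members (20%) lay inside another gene, against 6.98% of all genes. A pooled region was found at 22.9% of these 35 and at 30% of the other 140, and no matching split over all genes is given.

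The pooled share of members was below that of all genes on each chromosome. It was 13.3% on X (4 of 30 members) against 48.7%, and 21.9% on II (7 of 32) against 37%. It was 26.1% on I (6 of 23) against 51.2%, 27.3% on V (9 of 33) against 43.0%, 38.5% on III (5 of 13) against 52.8% and 43.2% on IV (19 of 44) against 48.9%. In the pooled list the gap was widest on X and narrowest on IV, where 19 of the 50 members with a region lie, but the replicates ordered the chromosomes otherwise. On V, replicate 1 had regions at 45.5% of members and 46.7% of all genes, and replicate 2 at 15.2% and 45.1%, its widest gap. On X, replicate 1 gave 26.7% and 50.3%, and replicate 2 gave 30% and 50.4%. On IV, replicate 1 gave 36.4% and 49.3%, and replicate 2 gave 40.9% and 50.9%. Replicate 1 also had a narrow gap on III, with 53.8% of members and 55.1% of all genes, and the narrowest gap of replicate 2 was on II, with 34.4% and 42.0%. Groups of 13 to 44 genes give shares with wide counting error.

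Sequence motifs were counted on both strands in promoters from 250 bp before to 50 bp after each start. The core promoter motif TATAAA was found at 116 members (66.3%), against 38% of all promoters. The sequence GATAAG, of the GATA factors that act in hypodermis and gut, was found at 47 (26.9%), against 16.7%. The nuclear receptor element AGGTCA was found at 26 (14.9%), against 8.27%, and the repeat GAGAGA at 50 (28.6%), against 21.8%. Hits of GATAAG and TATAAA cannot overlap, since GATAAG starts and ends with a base that TATAAA lacks on either strand. Each motif was thus found at a larger share of members than of all promoters. Members with and without a pooled region had close shares, with TATAAA at 60.0% and 68.8%, GATAAG at 26.0% and 27.2%, AGGTCA at 16% and 14.4%, and GAGAGA at 28% and 28.8%. In the 200 bp around the best pooled summits the shares were 36% for members and 30.1% for all genes with TATAAA, and 14% and 7.95% with GATAAG. They were 2.00% (1 of 50 members) and 4.01% with AGGTCA, and 12% (6 members) and 10.7% with GAGAGA. The AGGTCA share of members thus rests on a single gene. A match describes letters in these windows and is not a binding site.

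Of 15 genes for collagen modification, processing and crosslinking, 8 had a pooled region (53.3%), against 46.2% of all genes. It was 9 in replicate 1 (60.0%), against 48.6%, and 10 in replicate 2 (66.7%), against 48.3%, so with 15 genes the shares lay near or somewhat above those of all genes. The highest ranked was bli-4, a proprotein convertase that trims procollagens, with pooled rank 2816 and a signal of 26.5, 14 bp upstream of the start. Its rank was 1829 in replicate 1 and 16123 in replicate 2. The next was dpy-31, a protease that processes SQT-3, with pooled rank 6081 (signal 22.2, 375 bp upstream), rank 3949 in replicate 2 and no region in replicate 1. Of this list, doxa-1 and tsp-15, which act with the oxidase BLI-3 in crosslinking, had no region in any list. Of 7 molting genes, each list had a region at 5 (71.4%). Over all genes the shares were 46.2% in the pooled list, 48.6% in replicate 1 and 48.3% in replicate 2. A region in all 3 lists was found at 4 of the 7, against 26.2% of all genes, and 7 genes are few. The highest pooled ranks were those of mlt-8 at 4135 (signal 24.3; 7950 in replicate 1, 2816 in replicate 2) and of nas-36, a molting protease, at 10506.

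Genes of other cuticle proteins had shares below those of all genes in each list. Of 12 genes for cuticlins and apical matrix proteins, 2 had a pooled region (16.7%), against 46.2% of all genes. It was 3 in replicate 1 (25%), against 48.6%, and 4 in replicate 2 (33.3%), against 48.3%. No region in any list was found for 7 of the 12, where 30.8% of all genes had none. The highest was cut-6 at pooled rank 3328 (signal 25.5, 619 bp upstream; 2065 in replicate 1, 13018 in replicate 2), followed by cut-2 at 23079. Of 14 regulators of cuticle genes and molting, each list had a region at 6 (42.9%), near the 46.2% of all genes in the pooled list. These were not the same 6 in every list, and 2 of the 14 had a region in all 3, against 26.2% of all genes. Their highest pooled ranks were 10461 for myrf-1 and 13669 for myrf-2, membrane-bound transcription factors. For scale, 54.3% of 269 nuclear receptor genes and 75% of 76 ribosomal protein genes had a pooled region, with median best ranks of 9329 and 5431. These small lists carry no test of difference.

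**Figure D5:**
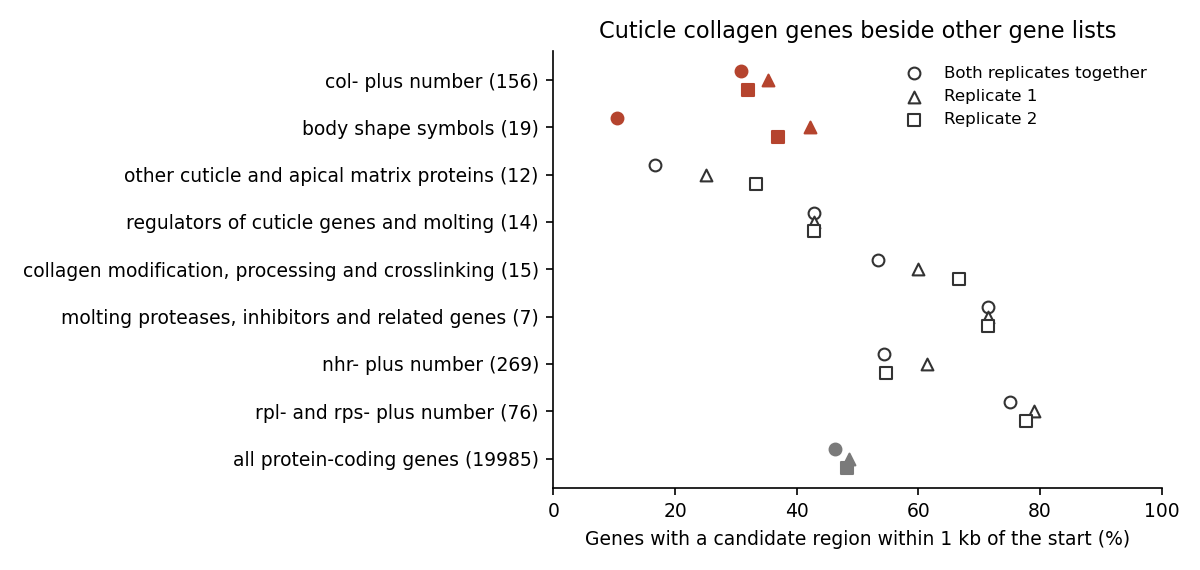
Share of genes (percent, horizontal axis) with a region within 1 kb in each list (marker shape), for cuticle collagen genes in 2 groups by symbol (red), other gene lists (open) and all protein-coding genes (grey), with the number of genes in parentheses. Pooled shares were 30.8% of col genes, 10.5% of body-shape genes, 53.3% of collagen modification, processing and crosslinking genes, 71.4% of molting genes and 46.2% of all protein-coding genes.

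Within 2 kb of the start, a pooled region among the highest 1000 was found at 8 members (4.57%), against 4.87% of all genes, so at this distance the shares were close. The 8 were named after their values were seen. Besides col-63 and col-179 they were col-94 (rank 228, signal 44.0, 1738 bp upstream in an intron of dhc-4), sqt-2 (484, 37, 1300 bp downstream), col-138 (543, 36.2, 1090 bp upstream in an intron of C52D10.3), dpy-4 (715, 34.2, 1060 bp upstream in an intron of atln-2), col-147 (751, 33.9, 1381 bp downstream in a coding exon of T06E4.5) and col-178. The region of col-178 is the one counted for col-179 and lies 1522 bp downstream of its own start. Most of these summits lie inside or nearer to other genes, so a gene's place within 2 kb does not say which gene the region belongs to.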

How the data were processed

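NHR-28 ChIP-seq was made on 2 biological replicates of 1 group of L1 larvae. The authors made lists of candidate regions, which include background, from each replicate and from both together against a control, and a list of peaks thresholded by the irreproducible discovery rate, per the deposited file listing. The aligner, peak caller and threshold were not given in the sources used here. As deposited, the authors' signal value sets the rank of regions within 1 list, with equal signals sharing the lowest rank. A −log10 q value for each region, as the authors deposited it, entered no test. Summit positions are those the authors deposited. The lists hold no read counts, so the depth is unknown. Sample columns left out numbered 0, and the ce10 lists were not used.

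Genes came from Ensembl release 115 (WBcel235, the same assembly as ce11), and no region reached past a chromosome end. Intervals are exact (Clopper-Pearson, 95%) and cover counting error only. Members and lists were chosen with earlier results of these data known. Named genes were members at thresholded peaks, the 15 best pooled ranks, members within the highest 1000 of both replicates, the 19 body-shape genes, up to 5 rank gaps, members sharing a region and the best 2 of each list. The regulator elt-5 was not found. No reference promoter table was used. Pairing of genes and summits was tested on simulated data. Python 3.11.15, numpy 2.4.6, pandas 2.3.3, scipy 1.17.1 and matplotlib 3.10.9 were used. Alternatives covered distance, gene starts, region edges, rank limits and single replicates.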

Additional observations from a re-analysis of the deposited data

How the results depend on the processing

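The share of cuticle collagen genes with a pooled region stayed below that of all protein-coding genes under every alternative computed, while its size depended on distance and on the list. The share was 16.6% within 500 bp, 55.4% within 2 kb, 24.0% with only regions whose nearest start is the gene's, 34.9% with any part of a region within 1 kb, 24.0% for upstream regions only, and 32.6 to 36% with each replicate alone. The members' share minus that of all genes was -13.8 points within 500 bp, -8.15 within 2 kb, -15.1 with any part of a region, -12.7 in the members' length range, -9.08 upstream only, and -15.7 to -12.6 with each replicate alone. The number within the highest 1000 regions was 1 within 500 bp, 8 within 2 kb and 2 to 3 with each replicate alone, and 5 with a limit of 3000. The median best rank was 20470 within 500 bp, 12126 within 2 kb, 17800 from any transcript start, 16448 with a shared region counted once, 16293 in the length range, 15965 upstream only, and 16569 to 16839 with each replicate alone. The upstream share of best regions was 72.4% within 500 bp, 58.8% within 2 kb, 76.2% with nearest starts only, and 80.7 to 87.3% with each replicate alone. Members with a region in all 3 lists numbered 7 within 500 bp, 50 within 2 kb and 9 upstream only. The thresholded count was 0 to 1 with the highest regions of each replicate alone. The rank correlation of the replicates was -0.321 within 500 bp (10 members) and 0.151 within 2 kb (65 members). In the 200 bp at the best summit the motif shares of members were 12% for GAGAGA, 2.00% for AGGTCA, 14% for GATAAG and 36% for TATAAA, windows that hold other bases than the promoters. Length range, upstream only, uniqueness and GC were chosen after seeing the data. The causes of these changes were not tested, apart from the distance, which by construction admits more regions. Depth is unknown, so no precision per region can be given. No paired analysis was possible because there is only 1 group.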

Other observations

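Of 5 collagen genes outside the family examined, a region within 1 kb was found at 2 in the pooled list, at 1 in replicate 1 and at 4 in replicate 2. Over all genes the shares were 46.2%, 48.6% and 48.3% in that order. The counts of these 5 genes lay on both sides of those shares, and 5 genes are few. For cle-1, a collagen of basement membranes, the pooled rank was 15131 with the summit 717 bp upstream, and replicate 2 had rank 14101. For mec-5, a collagen of touch neurons' surroundings, the pooled rank was 15209, 228 bp upstream, with rank 21124 in replicate 1 and 16374 in replicate 2.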
